A study of Mus musculus with 6 samples.

Results

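Acute phase proteins are secreted or membrane proteins whose genes are switched on in inflammation, mostly in the liver and for some members also in the lining of the gut. The 10 genes described here were taken by name from the 35275 genes of the deposited tables: Lbp, Lrg1, Steap4, Saa1, Saa2, Saa3, Hp, Cp, Serpina3n and Itih4. Their RNA was measured in colon of C57BL/6 mice in 3 groups, each of 2 libraries. One group had received 22-B3, an engineered variant of the cytokine interleukin-22 (IL-22), the next wild-type IL-22 (WT IL-22), and the last phosphate-buffered saline (PBS). Both proteins were given at 200 µg per mouse, and the treatment lasted 6 h in all 3 groups. The labels give neither a route of injection nor a statement that each library is a different mouse. All p-values therefore rest on the variation among these libraries, part of which may be technical. What distinguishes 22-B3 from WT IL-22 in sequence is not stated in the labels.

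IL-22 is made by lymphocytes and binds a receptor of the chains Il22ra1 and Il10rb, found mainly on epithelial cells and hepatocytes. The receptor activates the transcription factor STAT3, which together with C/EBP and NF-kappaB factors drives many acute phase genes. In the liver IL-22 is known to induce serum amyloid A and lipopolysaccharide-binding protein, and in the gut it is known for antimicrobial and mucosal defence genes.

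Each library held 17428528 to 22081904 counts. Levels of a gene across libraries are given below as CPM, the count scaled to library size after TMM normalization, and levels of different genes are compared only as FPKM, the deposited measure per transcript length and library size. All 9 epithelial markers examined, among them Epcam and Krt20, were detected in every library, and their summed level was 12295 to 14440 CPM. The PBS pair was closer than any other pair of libraries, with a median absolute log2 difference per gene of 0.116, against 0.313 in the 22-B3 pair and 0.231 in the WT IL-22 pair. For that reason each call against PBS was repeated with the PBS pair merged into a single library, and the outcome is given where the call changed. The 22-B3 replicate 1 library lay nearer to the WT IL-22 libraries (0.210 and 0.229) than to the PBS libraries (0.361 and 0.374). The 22-B3 replicate 2 library lay nearer to the PBS libraries (0.238 and 0.243) than to the WT IL-22 libraries (0.372 and 0.264).

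Against PBS, Lbp rose 6.50-fold with 22-B3 and 7.42-fold with WT IL-22. Lrg1 rose with both as well, 2.78-fold with 22-B3 and 4.75-fold with WT IL-22, while Steap4 rose 2.30-fold with WT IL-22 and did not pass with 22-B3. Saa2 had 37 counts with 22-B3, 42 counts with WT IL-22 and 1 count with PBS over both libraries of each group, too few in PBS for its test to support a call. Saa1, by far the most abundant member, and Saa3, Hp, Cp and Serpina3n passed the test in no comparison. A gene passed at an edgeR quasi-likelihood p, adjusted by Benjamini-Hochberg over the 15628 genes tested, under 0.05. With 22-B3 against PBS, 2 members passed as higher and 0 as lower, and 4 had an unadjusted p under 0.05. Of all genes tested 0.947% passed as higher and 0.154% as lower, 148 and 24 genes, against 2 and 1 with the PBS pair merged. With WT IL-22 against PBS, 4 of the 10 members passed as higher and 0 as lower, and the same number had an unadjusted p under 0.05. One of them, Saa2, entered the test through its treated libraries alone, so that 3 remain without it. Of all genes tested 9.9% passed as higher and 6.74% as lower, 1547 and 1054 genes, against 1090 and 1566 under upper-quartile scaling and 125 and 29 with the PBS pair merged. Itih4 was too low to be tested. The median log2 change of the 9 tested members was 0.49 with 22-B3 and 0.58 with WT IL-22, both against PBS, and it was Saa3's in each case. Both medians include Saa2, which entered through its treated libraries alone. The median over all genes tested was 0.01 with 22-B3 and -0.01 with WT IL-22. Both comparisons used the same PBS libraries. In bulk tissue, fewer cells of a type and less RNA per cell cannot be told apart.

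**Figure D1:**
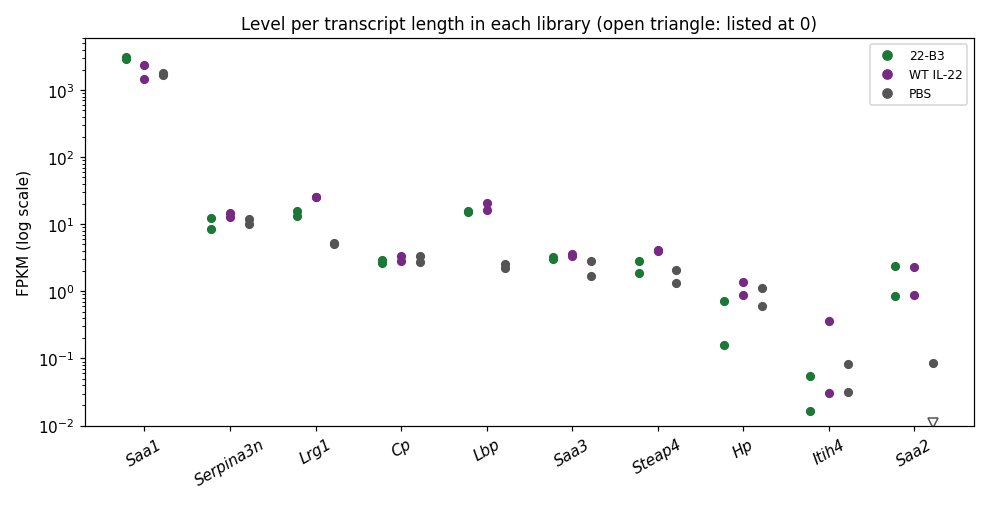
FPKM on a log axis of the 10 acute phase genes in each library, coloured by group, with an open triangle where a gene was listed at 0. Saa1 lies between 1476 and 3079 FPKM in the 6 libraries, and every other member lies at or below 25.9 FPKM.

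Saa1 was the most abundant member per transcript length in every library. Saa1 averaged 3015 FPKM with 22-B3, 1906 FPKM with WT IL-22 and 1746 FPKM with PBS. It took 0.179% and 0.186% of all counts in the 22-B3 libraries, 0.141% and 0.0893% in the WT IL-22 libraries, and 0.110% and 0.101% in the PBS libraries. The order of the others differed by group. With 22-B3, Lbp (mean 15.5 FPKM) and Lrg1 (14.4 FPKM) overlapped as the next highest, ahead of Serpina3n (10.4 FPKM). With WT IL-22, Lrg1 (25.7 FPKM), Lbp (18.5 FPKM) and Serpina3n (13.6 FPKM) followed Saa1 and did not overlap. With PBS, Serpina3n (11.1 FPKM), Lrg1 (5.21 FPKM) and Cp (3.09 FPKM) followed Saa1 without overlap, and Lbp (2.40 FPKM), Saa3 (2.27 FPKM) and Steap4 (1.71 FPKM) came next, with overlap between neighbours. Hp, Saa2 and Itih4 held the last places in every group, at means of at most 1.63 FPKM.

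**Figure D2:**
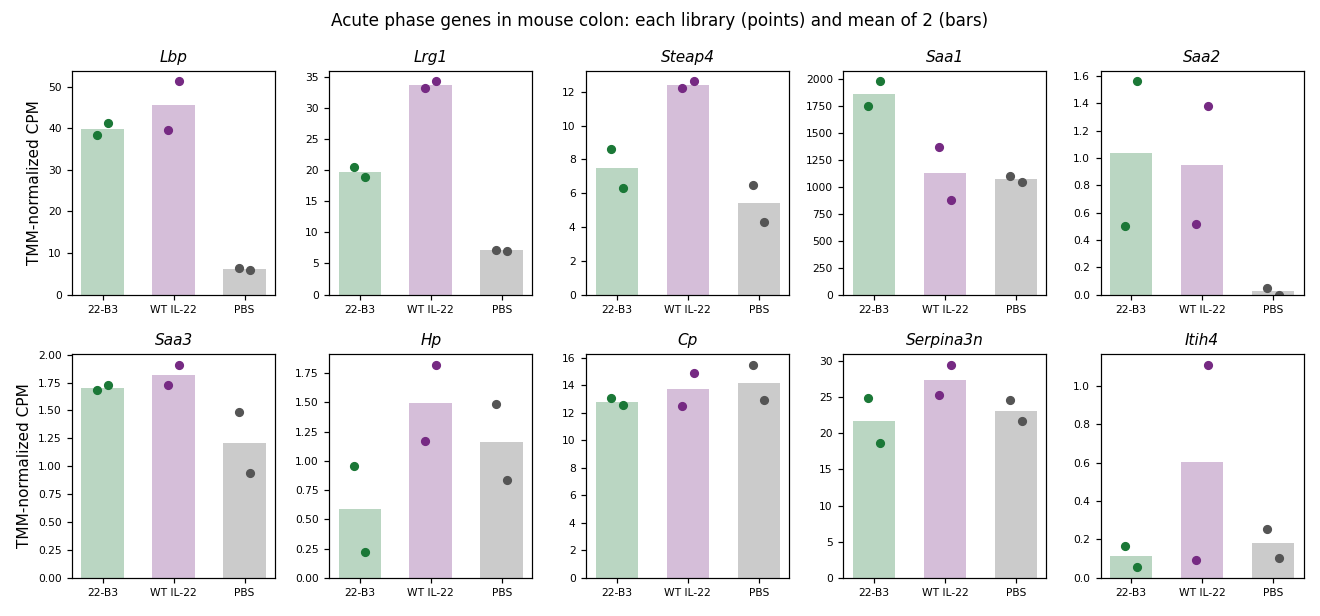
TMM-normalized CPM of each acute phase gene, 1 panel per gene with its own axis from 0, points for the libraries and bars for the mean of 2. The PBS points of Lbp and Lrg1 lie below all treated points, the points of Cp overlap between all groups, and the 22-B3 points of Serpina3n lie on either side of its PBS points.

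Lbp encodes lipopolysaccharide-binding protein, which carries lipopolysaccharide of gram-negative bacteria to Cd14 and the Tlr4 receptor (ENSMUSG00000016024, chr2:158306493-158332852, mm10, plus strand). Its counts were 684 and 742 in the 22-B3 libraries, 850 and 1154 in the WT IL-22 libraries, and 124 and 113 in the PBS libraries. At TMM-scaled levels this was 38.4 and 41.3 CPM with 22-B3, 39.7 and 51.3 CPM with WT IL-22, and 6.37 and 5.88 CPM with PBS. All 4 treated libraries lay above both PBS libraries, and the treated groups overlapped each other. Lbp rose 6.50-fold with 22-B3 (95% interval 4.85 to 8.71, edgeR adjusted p = 0.00106) and 7.42-fold with WT IL-22 (95% interval 5.53 to 9.96, edgeR adjusted p = 0.000205). The call with 22-B3 was lost without PBS replicate 2, at an edgeR adjusted p of 0.0514 and a log2 change of 2.65, and was kept with the PBS pair merged (edgeR adjusted p = 0.0391).

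Lrg1 encodes leucine-rich alpha-2-glycoprotein, a secreted protein known to modify TGF-beta signalling in endothelial cells (ENSMUSG00000037095, chr17:56119680-56121946, minus strand). It was at 20.5 and 19.0 CPM with 22-B3, at 33.3 and 34.3 CPM with WT IL-22, and at 7.14 and 7.08 CPM with PBS. The 3 groups were fully separate, with the 22-B3 libraries between the others. Lrg1 rose 2.78-fold with 22-B3 (95% interval 2.17 to 3.56, edgeR adjusted p = 0.00427) and 4.75-fold with WT IL-22 (95% interval 3.71 to 6.09, edgeR adjusted p = 0.000272). With the PBS pair merged, the call with 22-B3 was lost (edgeR adjusted p = 0.107), and it was lost without PBS replicate 1 (edgeR adjusted p = 0.114) or PBS replicate 2 (edgeR adjusted p = 0.127). The log2 change in these fits was 1.47 to 1.48, the size with all libraries.

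Steap4 encodes a membrane metalloreductase that reduces iron and copper for uptake (ENSMUSG00000012428, chr5:7960472-7982213, plus strand). Its level was 8.64 and 6.29 CPM with 22-B3, 12.2 and 12.6 CPM with WT IL-22, and 6.47 and 4.32 CPM with PBS. The WT IL-22 libraries lay above all others, while 22-B3 replicate 2 fell within the PBS range. Steap4 rose 2.30-fold with WT IL-22 (95% interval 1.54 to 3.43, edgeR adjusted p = 0.0181), and with 22-B3 it was 1.38-fold PBS (95% interval 0.920 to 2.08, edgeR adjusted p = 0.363). The WT IL-22 call was lost with the PBS pair merged (edgeR adjusted p = 0.124). It was also lost without WT IL-22 replicate 1 (edgeR adjusted p = 0.0895), WT IL-22 replicate 2 (0.0589), PBS replicate 1 (0.0795) or PBS replicate 2 (0.195), at log2 changes of 0.94 to 1.53.

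The 250 bases before the start of Steap4 are printed because matches to all 3 motif classes searched lay there, the most of any member with a promoter entry. The sequence is from RefSeq on GRCm38.p6, the mm10 assembly, at chr5:7960222-7960471 on the plus strand, with motif matches in capitals.
Steap4: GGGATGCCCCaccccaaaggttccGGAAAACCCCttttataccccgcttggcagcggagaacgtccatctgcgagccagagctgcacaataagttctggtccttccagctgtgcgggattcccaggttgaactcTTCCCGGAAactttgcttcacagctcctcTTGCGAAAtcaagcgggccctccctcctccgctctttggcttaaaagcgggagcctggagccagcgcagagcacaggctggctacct
The STAT motif, TTCNNNGAA, matched 116 to 108 bases before the start (TTCCCGGAA), and the C/EBP motif, TTGCNNAA, matched 87 to 80 bases before it (TTGCGAAA). The kappaB consensus matched at 250 to 241 and at 226 to 217 bases before the start, and none of these matches overlapped. Both strands of 300 bases, 250 before and 50 after the start, were searched in 32851 promoters, of which 8.3% held the STAT motif, 10.8% the C/EBP motif and 4.51% the kappaB consensus. Of the 10 members 8 had a promoter entry, all but Lbp and Hp. The STAT motif was also found in Itih4, at 51 to 43 bases before the start. The C/EBP motif was also found in Saa1, Saa2, Saa3 and 1 of the 2 starts of Cp. The windows of Lrg1 and Serpina3n held no match. A match describes letters, and binding was not measured.

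The serum amyloid A genes encode small lipid-carrying proteins that lie together on chromosome 7, where Saa1 and Saa2 are close copies. Their promoters are shown for that reason, with the shared C/EBP match in capitals, Saa1 at chr7:46742981-46743230 on the minus strand and Saa2 at chr7:46751583-46751832 on the plus strand (RefSeq, GRCm38.p6).
Saa1: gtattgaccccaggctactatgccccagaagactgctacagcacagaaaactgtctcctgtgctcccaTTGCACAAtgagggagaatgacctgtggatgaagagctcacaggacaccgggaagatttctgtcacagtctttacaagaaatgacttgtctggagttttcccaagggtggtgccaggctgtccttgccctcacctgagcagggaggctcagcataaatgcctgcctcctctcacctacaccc
Saa2: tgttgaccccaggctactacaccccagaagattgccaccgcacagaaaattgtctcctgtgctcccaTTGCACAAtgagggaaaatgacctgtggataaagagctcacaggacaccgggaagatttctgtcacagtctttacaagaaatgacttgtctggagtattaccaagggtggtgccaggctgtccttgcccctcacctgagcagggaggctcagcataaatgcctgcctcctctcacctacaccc
The 300-base windows were identical in 287 of 301 aligned columns (95.3%), and the longest coding transcripts in 87.3% of columns. Of the 50-base windows of Saa2 transcripts, 8.46% also occurred in Saa1, and of those of Saa1, 13.2% occurred in Saa2. Reads that lie wholly within these stretches cannot be assigned to either gene by their sequence. The sources used here do not say how the counter treated such reads, which makes the values of both genes uncertain.

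Saa1 (ENSMUSG00000074115, chr7:46740501-46742980, minus strand) was high in every group, including PBS. It was at 1746 and 1973 CPM with 22-B3, at 1369 and 876 CPM with WT IL-22, and at 1094 and 1038 CPM with PBS. Both 22-B3 libraries lay above all 4 others, and the WT IL-22 libraries lay on either side of the PBS pair. The level with 22-B3 was 1.74-fold PBS (95% interval 1.21 to 2.51), with an unadjusted p of 0.00746 in the edgeR fit across all genes and an edgeR adjusted p of 0.142. DESeq2 called this difference (DESeq2 adjusted p = 0.0058, log2 change 0.80). With WT IL-22 it was 1.05-fold PBS (95% interval 0.733 to 1.51, edgeR adjusted p = 0.847), and the sign turned without WT IL-22 replicate 1 (log2 change -0.31) and under upper-quartile scaling (log2 change -0.05). Upper-quartile scaling moved the median log2 change of all genes to -0.13 with WT IL-22 and to -0.10 with 22-B3, both against PBS.

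Saa2 (ENSMUSG00000057465, chr7:46751833-46754314, plus strand) had 9 and 28 counts with 22-B3, 11 and 31 counts with WT IL-22, and 1 and 0 counts with PBS. Every treated library lay above both PBS libraries, and the treated groups overlapped. The summed count per TMM-scaled library size was 40.0 times the PBS value with 22-B3 (95% exact interval 6.75 to 1622). With WT IL-22 it was 37.0 times (6.29 to 1496). These intervals cover counting error only. Saa2 passed the filter on low counts through the treated libraries alone. It was therefore tested only because its treated libraries were high. Its p-values are a description that supports no call and no contrast between the proteins. Without that filter the edgeR adjusted p was 0.0210 with 22-B3 and 0.00566 with WT IL-22. With the filter it was 0.0925 with 22-B3 and 0.0278 with WT IL-22. For WT IL-22 it was 0.137 with the PBS pair merged and 0.0602 to 0.203 without any 1 of the WT IL-22 or PBS libraries. Per 100 Saa1 counts there were 0.0289 and 0.0790 Saa2 counts with 22-B3, 0.0375 and 0.157 in the WT IL-22 libraries, and 0.00469 and 0 with PBS. The ratio of the paralogs thus differed between libraries, and in each treated group replicate 2 was the higher.

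Saa3 (ENSMUSG00000040026, chr7:46711998-46715676, minus strand), which macrophages, adipocytes and epithelium can make, was low throughout. It had 30 and 31 counts with 22-B3, 37 and 43 counts with WT IL-22, and 29 and 18 counts with PBS. At TMM-scaled levels this was 1.68 and 1.73 CPM, 1.73 and 1.91 CPM, and 1.49 and 0.937 CPM in the same order of groups. All treated libraries lay above both PBS libraries, by little. Its log2 change was 0.49 with 22-B3 (95% interval -0.38 to 1.36, edgeR adjusted p = 0.513) and 0.58 with WT IL-22 (95% interval -0.27 to 1.44, edgeR adjusted p = 0.303).

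Hp encodes haptoglobin, which binds free hemoglobin (ENSMUSG00000031722, chr8:109575130-109579172, minus strand). It had 17 and 4 counts with 22-B3, 25 and 41 counts with WT IL-22, and 29 and 16 counts with PBS. At TMM-scaled levels the 22-B3 libraries were at 0.953 and 0.223 CPM, the WT IL-22 libraries at 1.17 and 1.82 CPM and the PBS libraries at 1.49 and 0.833 CPM, so both treated groups overlapped PBS while the 22-B3 libraries lay below both WT IL-22 libraries. The log2 change was -0.98 with 22-B3 (95% interval -2.47 to 0.52, edgeR adjusted p = 0.454) and 0.36 with WT IL-22 (95% interval -0.99 to 1.71, edgeR adjusted p = 0.697), whose sign turned without WT IL-22 replicate 2 (-0.02). The 22-B3 value was -2.38 without 22-B3 replicate 1 and -0.28 without 22-B3 replicate 2. Adipocytes, which make Hp, can be attached to gut tissue. The 7 adipocyte markers were all detected in every library, at summed levels of 86.3 and 47.9 CPM with 22-B3, 73.1 and 50.5 CPM with WT IL-22, and 116 and 107 CPM with PBS. Adipoq, Plin1, Lep and Cfd were lowest in 22-B3 replicate 2, the library with 4 Hp counts, where Adipoq was at 1.61 CPM. Retn and Cidec were lowest in WT IL-22 replicate 2, the library with 41 Hp counts, and Fabp4 in 22-B3 replicate 1. Fabp4 passed as lower with WT IL-22 (log2 change -0.73, edgeR adjusted p = 0.0268). WT IL-22 replicate 2, the library with 41 Hp counts, also held the most counts of the liver gene albumin, 903. The parts of adipocytes and of liver RNA in the Hp values were not tested.

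Cp encodes ceruloplasmin, the copper protein that oxidizes iron for transport (ENSMUSG00000003617, chr3:19957054-20009145, plus strand). It was at 13.1 and 12.6 CPM with 22-B3, at 12.5 and 14.9 CPM with WT IL-22, and at 15.5 and 12.9 CPM with PBS. All 3 groups overlapped. The ratio to PBS was 0.903 with 22-B3 (95% interval 0.676 to 1.21, edgeR adjusted p = 0.690) and 0.966 with WT IL-22 (95% interval 0.725 to 1.29, edgeR adjusted p = 0.872). Cp overlaps Hps3 on the opposite strand, and reads of the pair cannot be told apart without the strand setting of the counting, which the sources used here do not give.

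Serpina3n encodes a secreted inhibitor of serine proteases (ENSMUSG00000021091, chr12:104406729-104414329, plus strand). It was at 24.8 and 18.6 CPM with 22-B3, at 25.3 and 29.5 CPM with WT IL-22, and at 24.7 and 21.6 CPM with PBS. The WT IL-22 libraries lay above all 4 others, by a small margin, and the 22-B3 libraries lay on either side of the PBS pair. The ratio to PBS was 0.938 with 22-B3 (95% interval 0.699 to 1.26, edgeR adjusted p = 0.819) and 1.18 with WT IL-22 (95% interval 0.885 to 1.58, edgeR adjusted p = 0.379). Serpina3n belongs to a cluster of near copies, of which Serpina3g shared the most, 2.53% of the 50-base windows of Serpina3n.

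Itih4, a heavy chain of the inter-alpha-trypsin inhibitor family of plasma proteins, was close to absent (ENSMUSG00000021922, chr14:30886476-30901981, plus strand). It had 3 and 1 counts with 22-B3, 2 and 25 counts with WT IL-22, and 5 and 2 counts with PBS. The 25 counts of WT IL-22 replicate 2 stood apart from the other 5 libraries. Several genes secreted by hepatocytes were highest in the same library, and others were not. Albumin (Alb) had 32 and 47 counts with 22-B3, 28 and 903 counts with WT IL-22, and 167 and 150 counts with PBS. Fetuin-A (Ahsg) was at 0.0561 and 0.111 CPM with 22-B3, 0.607 and 3.73 CPM with WT IL-22, and 0.873 and 1.46 CPM with PBS. The fibrinogen chain Fgb had 59 counts in WT IL-22 replicate 2 and 1 to 4 in every other library, and Serpina3k had 68 counts there and 0 to 13 elsewhere.

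**Figure D3:**
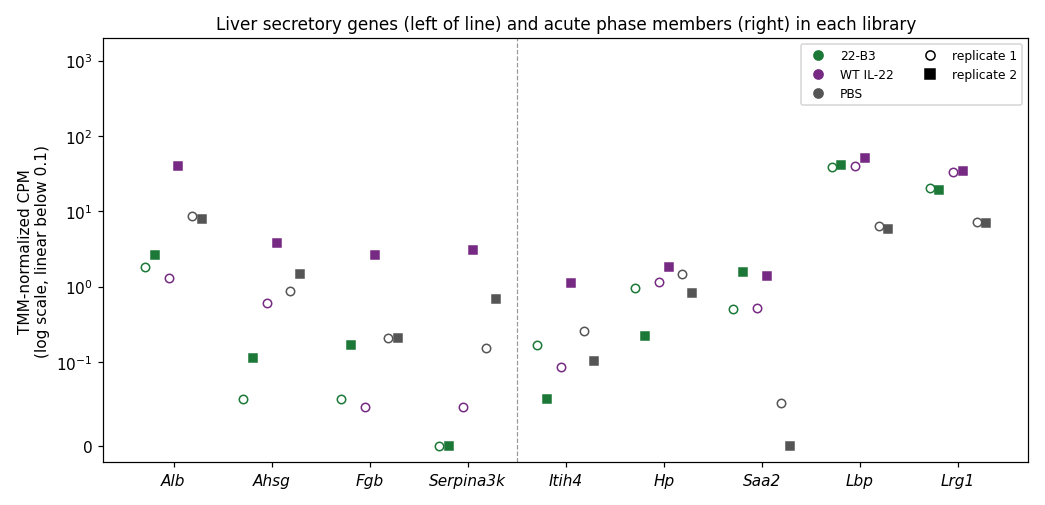
TMM-normalized CPM of 4 liver-secreted genes (left of the dashed line) and 5 acute phase genes (right) in each library, on an axis that is logarithmic above 0.1 CPM and linear below. WT IL-22 replicate 2 (filled purple square) is the highest library for every gene shown except Saa2. Lbp was at 51.3 CPM there and at 39.7 CPM in WT IL-22 replicate 1, and Lrg1 at 34.3 and 33.3 CPM.

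The 7 hepatocyte markers summed to 48.1 and 39.0 CPM with 22-B3, 24.4 and 73.5 CPM with WT IL-22, and 82.5 and 72.5 CPM with PBS. Ttr, which other tissues also express, was at 36.8 and 34.2 CPM with 22-B3, 12.1 and 18.8 CPM with WT IL-22, and 63.1 and 56.7 CPM with PBS. It passed as lower with WT IL-22 (log2 change -1.95, edgeR adjusted p = 0.00167). At most 1 of the 7 markers was at 0 in a library. The sum was highest in PBS replicate 1, and Alb in WT IL-22 replicate 2. Cyp2e1 was highest in WT IL-22 replicate 1, at 10.3 CPM, against 5.82 CPM in WT IL-22 replicate 2. Lbp was at 39.7 CPM in WT IL-22 replicate 1, where Alb was at 1.31 CPM. In WT IL-22 replicate 2, Lbp was at 51.3 CPM and Alb at 40.1 CPM. Without WT IL-22 replicate 2, the log2 change of Lbp was 2.67 (edgeR adjusted p = 0.00149) and that of Lrg1 was 2.20 (edgeR adjusted p = 0.00279). The part of liver RNA in the values of Itih4, Hp, Lbp, Lrg1 and the other members was not tested.

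**Figure D4:**
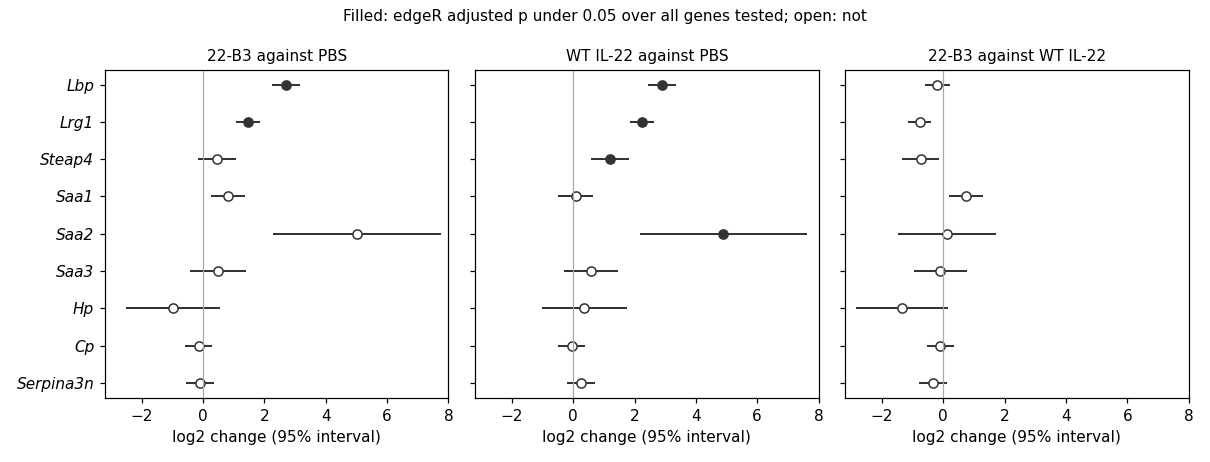
Fitted log2 change of the 9 tested acute phase genes in each of the 3 comparisons, with 95% intervals. Filled points passed at an edgeR adjusted p under 0.05 and open points did not, and the fitted change of Saa2 against PBS is no measure of size, since PBS had 1 count.

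Set directly against WT IL-22, 22-B3 gave no member past the threshold. By edgeR 0 members passed as higher and 0 as lower, with 3 at an unadjusted p under 0.05, where 0.032% of all genes tested passed as higher and 0.0704% as lower. DESeq2 called 1 member higher, Saa1 (log2 change 0.72, DESeq2 adjusted p = 0.0473), and 1 lower, Lrg1 (log2 change -0.79, DESeq2 adjusted p = 0.0182). The median log2 change of the 9 tested members was -0.19, which is that of Lbp, against 0.00 over all genes tested.

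For Lbp the level with 22-B3 was 0.876 times that with WT IL-22, with a 95% interval of 0.674 to 1.14 (edgeR adjusted p = 0.726). Lrg1 was 0.584 times as high (95% interval 0.464 to 0.737), and both 22-B3 libraries lay below both WT IL-22 libraries. Its unadjusted p in the edgeR fit across all genes was 0.000566 and its edgeR adjusted p was 0.121. Without 22-B3 replicate 1 Lrg1 passed as lower (edgeR adjusted p = 0.0330). Steap4 was 0.601 times as high (95% interval 0.405 to 0.890, edgeR adjusted p = 0.411), again with both 22-B3 libraries lower. Saa1 stood the other way, at 1.66 times the WT IL-22 level (95% interval 1.15 to 2.38, edgeR adjusted p = 0.378), with both 22-B3 libraries higher. Saa2 had 37 counts with 22-B3 and 42 counts with WT IL-22, a ratio per TMM-scaled library size of 1.08 (95% exact interval 0.676 to 1.72). For Saa3, Hp, Cp and Serpina3n the log2 difference was -0.09, -1.34, -0.10 and -0.34, and each 95% interval included 0. Both 22-B3 libraries lay below both WT IL-22 libraries for Saa3, Hp and Serpina3n. For Saa3 the nearest values were 1.7261 CPM with 22-B3 and 1.7285 CPM with WT IL-22. The Hp difference was -2.72 without 22-B3 replicate 1 and -0.65 without 22-B3 replicate 2.

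Over the 6 libraries, the genes whose pattern was nearest to that of Lbp were Syt12, Mybl2, Gda, Cdc6 and Trim40. The measure was the root mean square difference of log2 CPM after each gene's mean was subtracted, over 11963 genes with a mean count of at least 50 that were neither predicted genes nor immunoglobulin segments, and it ran from 0.270 for Syt12 to 0.357 for Trim40. Of the members above that count, Lrg1 (0.512) was the nearest to Lbp, followed by Steap4 (0.965), Saa1 (1.21), Serpina3n (1.29) and Cp (1.35). Gda, guanine deaminase, for example was at 258 and 208 CPM with 22-B3, 356 and 327 CPM with WT IL-22, and 56.2 and 54.2 CPM with PBS. These likenesses are descriptions over 6 libraries that include the treatment difference.

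Of 25 further acute phase genes, 12 had enough counts to be tested, and most liver-secreted ones, such as the fibrinogen chains, did not. With 22-B3 against PBS 0 passed by edgeR in either direction, where 0.947% of all genes tested passed as higher and 0.154% as lower. The unadjusted p was under 0.05 for 2 genes of the list, and DESeq2 called 1 as higher, Hamp2. With WT IL-22, Hamp2 passed as higher and Il1rn as lower, where 9.9% of all genes tested passed as higher and 6.74% as lower. The list's median log2 change was -0.05 with 22-B3 and 0.04 with WT IL-22. Hamp2, a mouse homolog of the iron hormone hepcidin, was at 3.08 and 2.06 CPM with 22-B3, 2.38 and 3.87 CPM with WT IL-22, and 0.616 and 0.833 CPM with PBS, a log2 rise of 2.10 with WT IL-22 (edgeR adjusted p = 0.0146). Il1rn, the natural antagonist of the interleukin-1 receptor, was at 60.5 and 51.4 CPM with 22-B3, 30.4 and 33.2 CPM with WT IL-22, and 60.5 and 67.0 CPM with PBS. It fell to 0.499 times the PBS level with WT IL-22 (edgeR adjusted p = 0.0056). The neighbouring Saa4 had 9 and 3 counts with 22-B3, 5 and 7 counts with WT IL-22, and 1 and 0 counts with PBS. The calls of Hamp2 and Il1rn were both lost with the PBS pair merged and without either PBS library, and that of Hamp2 also without WT IL-22 replicate 2.

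Among 25 genes of the cytokine receptors and transcription factors that induce acute phase genes, 22 were tested. With 22-B3 against PBS 1 passed as higher and 0 as lower, with a median log2 change of 0.12. Of all genes tested 0.947% passed as higher and 0.154% as lower in that comparison. With WT IL-22 2 passed as higher and 0 as lower, with a median of 0.22, where 9.9% of all genes tested passed as higher and 6.74% as lower. Socs3, the feedback inhibitor of STAT3 signalling, was at 25.3 and 32.0 CPM with 22-B3, 248 and 254 CPM with WT IL-22, and 7.81 and 7.08 CPM with PBS. It rose by 1.94 with 22-B3 (edgeR adjusted p = 0.00186) and by 5.07 with WT IL-22 (edgeR adjusted p = 6.6e-06). Its level was lower with 22-B3 than with WT IL-22 (log2 change -3.13, edgeR adjusted p = 0.000327). Stat3 was at 195 and 137 CPM with 22-B3, 249 and 207 CPM with WT IL-22, and 105 and 99.2 CPM with PBS. It rose by 1.16 with WT IL-22 (edgeR adjusted p = 0.00812), a call that was lost without WT IL-22 replicate 1, without either PBS library and with the PBS pair merged, and its log2 change was 0.70 with 22-B3 (edgeR adjusted p = 0.131). The receptor chains Il22ra1, at 28.5 to 41.7 CPM, and Il10rb, at 33.3 to 42.8 CPM, passed in no comparison.

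The genes that act with Lbp in sensing lipopolysaccharide were 7 tested of 8. With 22-B3 against PBS 0 passed by edgeR, where 1 had an unadjusted p below 0.05 and the DESeq2 count was 0, and the median log2 change was 0.22. Of all genes tested 0.947% passed as higher and 0.154% as lower in that comparison. With WT IL-22 4 passed as higher and 0 as lower, with a median of 0.65, where 9.9% of all genes tested passed as higher and 6.74% as lower. The co-receptor Cd14 was at 52.0 and 56.5 CPM with 22-B3, 58.9 and 87.1 CPM with WT IL-22, and 40.0 and 40.0 CPM with PBS, and its log2 rise with WT IL-22 was 0.87 (edgeR adjusted p = 0.0201). The receptor Tlr4 was at 37.0 and 41.0 CPM with 22-B3, 43.4 and 58.6 CPM with WT IL-22, and 34.8 and 29.6 CPM with PBS, a rise of 0.66 with WT IL-22 (edgeR adjusted p = 0.0403). Of the adaptors, Myd88 had a log2 rise of 0.65 (edgeR adjusted p = 0.0269) and Tirap a log2 rise of 0.89 (edgeR adjusted p = 0.0401). Of these 4 calls, 2 were kept under upper-quartile scaling, 1 without WT IL-22 replicate 1 (Cd14), 1 without WT IL-22 replicate 2 (Tirap), and 0 with the PBS pair merged or either left out.

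Calls in the remaining lists with WT IL-22 stand beside 9.9% of all genes tested passing as higher and 6.74% as lower. With 22-B3 against PBS those shares were 0.947% and 0.154%. Of 16 tested genes of iron, copper and heme handling, 1 passed as higher and 1 as lower with WT IL-22, at a median log2 change of 0.07, and 0 with 22-B3 against PBS, at a median of 0.12 and 3 with an unadjusted p under 0.05, where DESeq2 called 0 as well. The copper pump Atp7a was at 29.4 and 26.6 CPM with 22-B3, 42.5 and 41.1 CPM with WT IL-22, and 22.9 and 21.0 CPM with PBS (log2 change 0.93 with WT IL-22, edgeR adjusted p = 0.0067). The ferritin heavy chain Fth1 was at 1529 and 1615 CPM with 22-B3, 1139 and 1132 CPM with WT IL-22, and 1769 and 1740 CPM with PBS, and fell by 0.63 with WT IL-22 (edgeR adjusted p = 0.0387). Of 4 tested serum amyloid A receptors the scavenger receptor Cd36 fell with WT IL-22 (log2 change -0.63, edgeR adjusted p = 0.0425), and the list's median was -0.13 with 22-B3 and -0.23 with WT IL-22. Of 7 tested genes of the TGF-beta pathway that Lrg1 acts on, the receptor Tgfbr2 rose with WT IL-22 (log2 change 0.58, edgeR adjusted p = 0.0316), and the list's median was -0.12 with 22-B3 and 0.09 with WT IL-22. In both of these lists 0 genes passed with 22-B3 against PBS by edgeR or DESeq2, with 1 in each at an unadjusted p under 0.05 in the edgeR fit. Of 7 tested genes of the inter-alpha-inhibitor and hyaluronan list 0 passed by edgeR, 1 had an unadjusted p below 0.05 with WT IL-22 and 0 with 22-B3, both against PBS, and the DESeq2 count was 0. Its median log2 change was -0.45 with 22-B3 and -0.32 with WT IL-22. The calls of Atp7a, Fth1, Cd36 and Tgfbr2 were all lost with the PBS pair merged, without either PBS library and without WT IL-22 replicate 1. Those of Fth1 and Tgfbr2 were also lost without WT IL-22 replicate 2. The Tgfbr2 call was lost under upper-quartile scaling. Between 22-B3 and WT IL-22, Socs3 was the 1 gene of these lists past the edgeR threshold, and each list held 0 to 5 genes at an unadjusted p under 0.05. DESeq2 also called Il1rn and Mt1, a metal-binding metallothionein, as higher with 22-B3.

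Markers of other cell types differed between the groups as well. Their calls with WT IL-22 against PBS stand beside 9.9% of all genes tested passing as higher and 6.74% as lower. For 22-B3 against PBS the shares were 0.947% and 0.154%. The 6 macrophage markers summed to 347 and 348 CPM with 22-B3, 236 and 336 CPM with WT IL-22, and 541 and 559 CPM with PBS. Lyz2 made up much of that sum, at 339 and 348 CPM with PBS. C1qa, C1qb, C1qc and Lyz2 passed as lower with WT IL-22, at log2 changes of -0.73, -0.77, -0.83 and -1.21. Cd68 and Csf1r did not pass. Cd68 averaged 8.44 CPM with 22-B3, 7.63 CPM with WT IL-22 and 8.20 CPM with PBS, and Csf1r 40.1, 36.9 and 39.3 CPM. The 6 smooth muscle markers summed to 7364 and 9366 CPM with 22-B3, 5384 and 7728 CPM with WT IL-22, and 10972 and 11114 CPM with PBS, and Smtn, Tagln and Acta2 passed as lower with WT IL-22, at log2 changes of -0.62, -1.17 and -0.72. Of the neutrophil markers, S100a8 and S100a9 had at most 14 counts in a library, while Ly6g was at 303 and 375 CPM with 22-B3, 293 and 293 CPM with WT IL-22, and 107 and 119 CPM with PBS. The epithelial markers summed to 13457 and 14440 CPM with 22-B3, 13509 and 12780 CPM with WT IL-22, and 12295 and 12421 CPM with PBS, and 2 of them, Cdh1 and Vil1, passed as higher and 1, Car1, as lower with WT IL-22. The 5 B and plasma cell markers summed to 37.1 and 14.5 CPM with 22-B3, 26.3 and 36.5 CPM with WT IL-22, and 53.1 and 55.3 CPM with PBS. Their median log2 change was -1.11 with 22-B3 and -0.72 with WT IL-22. By edgeR 0 of them passed in either comparison with PBS, with 3 in each at an unadjusted p below 0.05, while DESeq2 called 2 as lower with 22-B3 and 1 with WT IL-22. Of the endothelial markers Kdr passed as higher with WT IL-22 (log2 change 0.72, edgeR adjusted p = 0.0201), at a list median of 0.34. Of the fibroblast markers Dcn passed as lower with WT IL-22 (log2 change -0.68, edgeR adjusted p = 0.0445), at a list median of -0.14. Lum and Col3a1 were also lower on average than with PBS, and Pdgfra and Col1a1 were higher. Pdgfra averaged 57.9 CPM with WT IL-22 and 41.9 CPM with PBS, and Lum 54.2 and 81.7 CPM. Of the mesothelial and enteric glial markers 0 passed against PBS by edgeR or DESeq2, with at most 1 per list at an unadjusted p below 0.05 in the edgeR fit. With the PBS pair merged, Ttr was the only gene of all marker lists that still passed against PBS. With 22-B3 against PBS, Ly6g was the only gene of these marker lists that passed by edgeR with the PBS libraries apart. The part of a shift in cell types in the changes of the acute phase genes was not tested.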

How the data were processed

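RNA of 6 mouse colon libraries was sequenced after mRNA enrichment, per the labels' protocols. Alignment was with STAR 2.5 on build mm10, per the submitters' processing notes. Read counter, annotation release and strand setting are not given in the sources used here. The deposited counts are whole numbers per gene without normalization, per the file headers and values. The deposited FPKM values equalled each count divided by gene length and column total (relative deviation at most 5e-12).

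The count fit used edgeR 4.0.16 under R 4.3.3. The group-wise filterByExpr rule left 15628 of 35275 genes, TMM gave the scaling, and all 6 libraries entered a model with a mean for each group. The 3 pairs of groups were compared by the robust quasi-likelihood test with Benjamini-Hochberg adjustment over all genes tested, with 0.05 as the limit for a call. Standard errors and 95% intervals were derived from the fitted change and its F statistic, and the fit was tested on simulated data with known changes. The simulated counts had the typical spread fitted to these data and no library that stood apart. That check therefore does not cover such libraries. The precision of the low members is set by totals of 17428528 to 22081904 counts per library. Count-ratio intervals were exact and cover counting error only.

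The members, gene lists and tests were chosen with earlier results of these data known. The text names all 10 members, the genes of each list that passed, defining cell type markers, and the 5 genes nearest to Lbp in pattern. Saa4, Mt1, Fgb, Serpina3k, Orm1, Apoh and Ambp, and Gda among the 5, were singled out after their values were seen. Alternatives were DESeq2 1.42.0, limma 3.58.1 on log2(FPKM + 0.1) and log2(FPKM + 1), RLE and upper-quartile scaling, no low-count filter, each pair of groups fitted alone, a replicate block, the PBS pair merged by summing, and each library left out. Promoter sequences were taken from RefSeq on GRCm38.p6, and 8 of 10 members matched.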

Additional observations from a re-analysis of the deposited data

How the results depend on the processing

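Among the log2 changes of the tested members under the alternatives, 362 values kept their direction and their side of the threshold, 10 newly passed, 15 no longer passed and 13 changed sign. The number of members that passed as higher with 22-B3 against PBS was 2, and it was 1 with the PBS pair merged and 0 to 3 with 1 library left out. With WT IL-22 against PBS it was 4, and it was 2 with the PBS pair merged and 2 to 4 with 1 library left out. Between 22-B3 and WT IL-22, where 0 passed in either direction by edgeR, DESeq2 called 1 as higher and 1 as lower, and 0 to 1 passed as lower with 1 library left out. The members that passed as lower against PBS numbered 0 in every alternative. The cause of these shifts was not tested, and fits that leave out a library have fewer samples. Where a group kept 1 library, it was assumed to vary like the others.

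The labels do not say whether the replicate numbers pair libraries across groups. Deviations of replicate 1 from the group means correlated at 0.04 between 22-B3 and PBS and at 0.04 between WT IL-22 and PBS. Between 22-B3 and WT IL-22 the correlation was 0.21. With 2 libraries per group these values cannot decide whether same-numbered libraries share an effect. With the replicate number as a block, 4 members passed as higher with 22-B3 against PBS (Saa1 at an edgeR adjusted p of 0.0224 and Saa2 at 0.0108 in addition), and 1 passed as lower with 22-B3 against WT IL-22 (Lrg1, edgeR adjusted p = 0.0252). Over all genes the block gave 787 higher and 276 lower with 22-B3 against PBS, 2496 and 2008 with WT IL-22 against PBS, and 71 and 112 with 22-B3 against WT IL-22.

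The sign turned for log2 changes near 0 and for low counts. With 1 library left out, the log2 change with 22-B3 against PBS ran from -0.3425 to 0.105 for Serpina3n. With WT IL-22 against PBS it ran from -0.208 to 0.0945 for Cp, from -0.0178 to 0.8463 for Hp and from -0.3078 to 0.335 for Saa1. In the direct comparison of the proteins it ran from -0.2224 to 0.0319 for Cp, from -0.3673 to 0.0019 for Lbp and from -0.9039 to 0.995 for Saa2. The WT IL-22 change of Cp was 0.0013 in limma on log2(FPKM + 0.1) and 4e-04 on log2(FPKM + 1), and that of Saa1 was -0.0461 under upper-quartile scaling. Over all genes, leaving out 1 library gave 1 to 1413 higher and 1 to 849 lower with 22-B3 against PBS, and 107 to 2790 higher and 26 to 2385 lower with WT IL-22 against PBS. In the direct comparison it gave 2 to 516 higher and 2 to 241 lower. DESeq2 called 539 and 140, 1979 and 1345, and 77 and 110 genes in that order of comparisons. It gave no adjusted p for Saa2 in any of the 3 comparisons or for Hp with WT IL-22 against PBS, and with the pair of groups fitted alone Saa2 had no value for 22-B3 against PBS. Without the low-count filter edgeR called 353 and 78 with 22-B3 against PBS and 36 and 65 in the direct comparison. With each pair of groups fitted alone it called 97 and 38, 2788 and 2269, and 2 and 2. With the PBS pair merged the direct comparison had 2 and 2, and upper-quartile scaling gave 93 higher with 22-B3 against PBS. The counts of Saa2, Saa3, Hp and Itih4, all at or below 43 in a library, limit what can be seen for these members.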
